A study of Homo sapiens with 4 samples.

Results

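TGIF1 and 8 other genes of the transforming growth factor beta (TGF-β) pathway were followed in RPE-1 cells kept in merbarone, a drug that inhibits the catalytic activity of DNA topoisomerase II. The 9 genes are TGIF1, SMAD3, SMAD7, SKI, SKIL, TGFB1, TGFB2, THBS1 and PMEPA1, out of 23459 genes listed by NCBI Gene identifier, and all 9 passed the filter on low counts, which kept 12559 genes. They were chosen by name around TGIF1, which was selected on its higher count at 8 h than at 4 h in these same libraries. The 8 h against 4 h values of the 9 genes are therefore given as a description, with no p-value. RPE-1 is a wild type line of human retinal pigment epithelium cells made immortal with telomerase (hTERT). The cells spent 48 h in medium with 0.1% serum and were then given 200 μM merbarone for 4 h (2 replicates) or 8 h (2 replicates). All 4 libraries thus share the starvation and the drug. No untreated library was analysed here, so time in merbarone and time in low-serum medium cannot be told apart.

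The 4 libraries held 8064450 to 10324697 counted reads each. In such bulk samples, fewer cells with a transcript and less of it per cell cannot be told apart. Of 11 marker genes of retinal pigment epithelium, 4 passed the filter, led by MITF (669 to 882 counts) and OTX2 (132 to 193 counts). RPE65 (2 to 7 counts), BEST1 (2 to 6), TYRP1 (1 to 3), RLBP1 (0 to 2) and TTR (0 to 1) did not pass. TYR and DCT had no count in any library. Summed over the 11 markers, the level was 100 to 106 CPM (reads scaled for library size) at 4 h and 106 to 115 at 8 h. MITF alone gave 78.4 to 89.7 CPM, so the sum says little about the other markers. Of the epithelial keratin genes, KRT8 was at 364 and 389 CPM at 4 h and 337 and 377 at 8 h, and KRT18 was lower at 8 h (347 and 381 CPM, then 237 and 239). The mesenchymal gene VIM was higher at 8 h (8739 and 8676 CPM, then 9480 and 11251). CDH2, also a mesenchymal gene, was at 382.6 and 367.5 CPM at 4 h and 363.5 and 378.0 at 8 h. The epithelial adhesion gene EPCAM had 0 counts. The part of these shifts in the results was not tested. Of the 3 endothelial markers none passed the filter, with at most 5 counts each, and of 4 blood cell markers CD3E and HBB had 0 counts, PTPRC 3 to 8, and CD68, a lysosomal gene that many cells express, 575 to 654.

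TGF-β ligands are secreted as latent complexes, held in the matrix and released by proteases, integrins and thrombospondin-1. The active ligand joins a type II to a type I receptor kinase, which phosphorylates SMAD2 and SMAD3, and these enter the nucleus with SMAD4 to regulate target genes. SMAD7 and PMEPA1 damp the signal at the receptor and at the SMADs, and SKI, SKIL and TGIF1 bind SMAD2 or SMAD3 in the nucleus and recruit histone deacetylases. SMAD7, SKIL and PMEPA1 are themselves direct targets of the pathway and form its feedback. In retinal pigment epithelium cells, TGF-β is known for driving a change to a contractile, matrix-producing state.

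TGIF1 encodes a homeodomain protein of the TALE class that represses SMAD-dependent and retinoid-dependent transcription. It lies on chromosome 18 at 3411606 to 3459976 (plus strand, GRCh37, the assembly that hg19 represents). Its normalised count, a read count corrected for library size and composition by TMM, stood at 1259 (replicate 1) and 1289 (replicate 2) after 4 h, and at 3567 and 3416 after 8 h. Both 8 h libraries lay far above both 4 h libraries, and the replicates of each time lay close together. The mean was 1274 ± 21.3 at 4 h and 3491 ± 107 at 8 h (SD, n = 2 each). TGIF1 was 2.74 times as high at 8 h, a log2 fold change (log2FC) of 1.45 with a standard error of 0.08 in the edgeR fit. Of the 12559 genes, 46 or 0.366% had a higher log2FC. Leaving out 1 library at a time moved the value only between 1.42 and 1.49. Reads that match TGIF1P1, a processed pseudogene of TGIF1, equally well would be missing from these counts, since reads that mapped more than once were discarded.

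The paralog TGIF2 represses the same SMADs. It is on the list of other pathway genes described below, which was drawn up with earlier results of these data known. Its p-values are therefore not an independent check. TGIF2 was present at a lower level. It had normalised counts of 197 and 171 at 4 h and 259 and 250 at 8 h, so that its groups did not overlap either. TGIF2 rose (log2FC 0.46, standard error 0.14, edgeR adjusted p = 0.0123), a call that was lost with DESeq2 (adjusted p = 0.0615) and without replicate 2 at 4 h (adjusted p = 0.149, over all alternatives 0.00424 to 0.149). Within each library, the ratio of TGIF1 to TGIF2 in reads per kilobase of transcript, which does not depend on library scaling, was 2.78 and 3.02 on the log2 scale at 4 h and 3.89 and 3.88 at 8 h. It thus went from 7.45 to 14.8 TGIF1 reads per TGIF2 read of equal length.

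**Figure D1:**
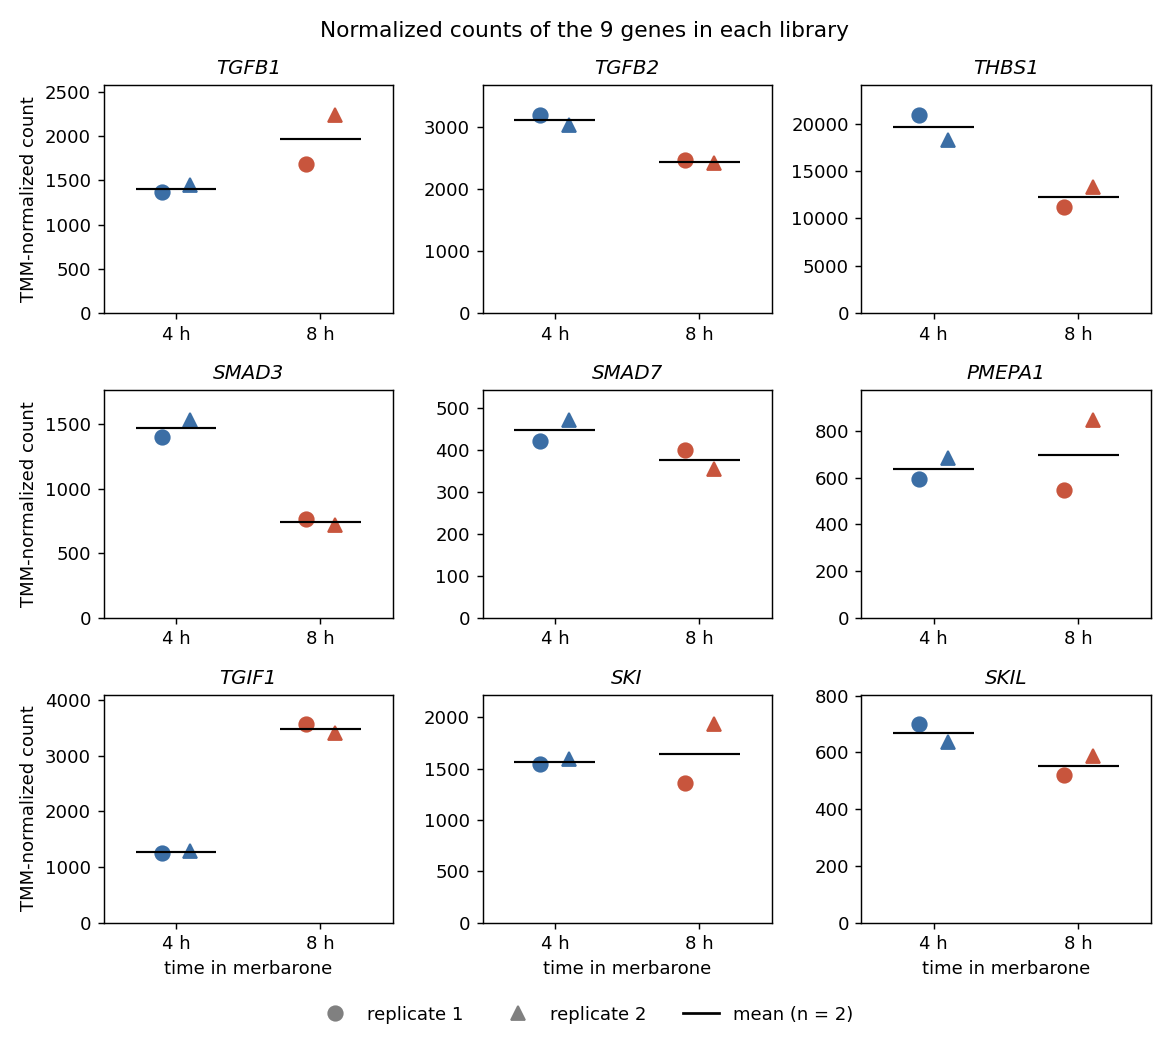
TMM-normalised counts (vertical axes, from 0) of the 9 genes in each library at 4 h (blue) and 8 h (red), with circles for replicate 1, triangles for replicate 2 and lines for the means of 2 libraries. TGIF1 goes from a mean of 1274 to 3491 and SMAD3 from 1470 to 742, while the 8 h replicates of SKI and PMEPA1 lie on either side of the 4 h libraries.

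RefSeq promoter windows were found for 8 of the 9 genes, 23 windows in all, of which 7 belong to TGIF1. The counts are per gene, so they do not tell which TGIF1 start was in use. The 250 bases before the start were placed on GRCh37 by exact match, and the sequences shown are all 3 TGIF1 windows free of annotated exons, beside the most upstream windows of SMAD3, SMAD7 and THBS1, which are also free of exons. They are shown because TGIF1 was higher in both 8 h libraries and these 3 genes were lower. SKIL and TGFB2 were also lower in both, but the 1 window of each overlaps an annotated exon and is not shown. Capitals mark the SMAD box CAGAC, searched on both strands, the short sequence that SMAD3 and SMAD4 contact. The sequences were taken from RefSeq on GRCh38.p14.
TGIF1, chr18:3447290-3447539, plus strand: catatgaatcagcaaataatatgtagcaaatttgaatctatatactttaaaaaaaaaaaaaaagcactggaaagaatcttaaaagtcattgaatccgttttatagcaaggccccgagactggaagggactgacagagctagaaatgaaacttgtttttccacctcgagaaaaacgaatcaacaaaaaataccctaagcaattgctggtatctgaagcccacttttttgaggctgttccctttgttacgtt
TGIF1, chr18:3448179-3448428, plus strand: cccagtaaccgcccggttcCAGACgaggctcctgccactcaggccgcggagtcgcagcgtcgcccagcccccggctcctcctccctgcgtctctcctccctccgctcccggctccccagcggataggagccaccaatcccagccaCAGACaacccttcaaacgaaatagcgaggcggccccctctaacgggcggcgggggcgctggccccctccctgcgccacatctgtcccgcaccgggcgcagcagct
TGIF1, chr18:3451341-3451590, plus strand: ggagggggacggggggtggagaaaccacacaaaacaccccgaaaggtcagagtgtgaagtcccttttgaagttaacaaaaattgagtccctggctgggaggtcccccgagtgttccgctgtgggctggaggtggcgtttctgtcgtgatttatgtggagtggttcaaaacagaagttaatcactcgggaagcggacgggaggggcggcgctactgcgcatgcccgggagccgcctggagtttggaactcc
SMAD3, chr15:67357690-67357939, plus strand: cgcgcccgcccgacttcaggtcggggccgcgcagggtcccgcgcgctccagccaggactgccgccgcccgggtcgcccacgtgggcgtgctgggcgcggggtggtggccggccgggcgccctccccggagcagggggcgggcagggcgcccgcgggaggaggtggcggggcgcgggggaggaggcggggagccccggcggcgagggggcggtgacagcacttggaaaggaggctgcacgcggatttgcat
SMAD7, chr18:46477336-46477585, minus strand: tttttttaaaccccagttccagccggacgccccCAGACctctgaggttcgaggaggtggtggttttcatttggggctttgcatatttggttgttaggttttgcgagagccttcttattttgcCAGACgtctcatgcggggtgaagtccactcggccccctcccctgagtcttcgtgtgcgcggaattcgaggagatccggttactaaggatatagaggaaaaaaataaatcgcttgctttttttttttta
THBS1, chr15:39873030-39873279, plus strand: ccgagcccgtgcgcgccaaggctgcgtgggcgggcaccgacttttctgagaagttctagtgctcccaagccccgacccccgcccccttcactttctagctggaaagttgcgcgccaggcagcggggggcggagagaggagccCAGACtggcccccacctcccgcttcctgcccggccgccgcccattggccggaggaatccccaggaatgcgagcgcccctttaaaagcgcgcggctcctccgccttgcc

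The TGIF1 window that starts at 3448179 holds 2 SMAD boxes, the SMAD7 window 2 and the THBS1 window 1. The SMAD3 window and the other 2 TGIF1 windows shown hold none. The windows of SKIL and TGFB2, not shown, hold 1 and 2. Over all windows, the SMAD box was in 13 of the 23 windows of these genes and in 38.0% of the 35116 windows of all genes, both strands searched. Among the 8 genes with a window, 7 held it at 1 start or more, and so did 42.8% of all genes. A gene with more windows has more chances to hold it, and TGIF1 has 7, SMAD3 5 and PMEPA1 4. The TGIF1 windows that start at 3449316 and 3449455 overlap and share a box. The counts were not adjusted for either point. The SMAD palindrome GTCTAGAC was in 0 of the 23 windows and in 0.182% of all. The core that TGIF proteins contact, TGTCA on either strand, was in 10 of the 23 windows, also in 4 of the 7 TGIF1 windows, and in 34.0% of all. A match is a stretch of letters only, and binding was not measured here.

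SKI and SKIL encode the related corepressors SKI and SnoN, which hold SMAD complexes inactive. SKI (chromosome 1, 2158827 to 2241652, plus strand) had normalised counts of 1543 and 1589 at 4 h and 1359 and 1931 at 8 h. Its 8 h replicates lay on either side of the 4 h ones, and the log2FC of 0.07 (standard error 0.11) was within its error. It was −0.04 with library size alone, −0.20 without replicate 2 at 8 h and 0.30 without replicate 1 at 8 h, so SKI has no stated direction. SKIL (chromosome 3, 170075130 to 170114623, plus strand) had 699 and 637 at 4 h and 520 and 588 at 8 h. Both 8 h libraries were below both 4 h libraries (log2FC −0.27, standard error 0.10). The gap between the nearest libraries was smaller than the one between the replicates of either time. Among the corepressors of SMAD proteins, TGIF1 was thus higher at 8 h while SKIL was at 82.7% of its 4 h level. The within-library ratio of TGIF1 to SKI per kilobase went from 1.56 to 4.13, and that of TGIF1 to SKIL from 4.30 to 14.2.

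SMAD3 encodes the receptor-activated SMAD that binds DNA directly. Of the 8 genes beside TGIF1, it had the largest difference between the times. SMAD3 (chromosome 15, 67356101 to 67487511, plus strand) had normalised counts of 1403 and 1537 at 4 h and 766 and 718 at 8 h. After 8 h it was at 50.6% of its 4 h level (log2FC −0.98, standard error 0.09), and leaving out 1 library moved this between −1.06 and −0.92. Of all genes, 4.44% had a lower log2FC. SMAD7 encodes the inhibitory SMAD. It lies at 46446223 to 46477335 on chromosome 18 (minus strand) and had 422 and 473 at 4 h and 400 and 355 at 8 h. Its groups did not overlap, but the gap between the nearest libraries was smaller than the one between the replicates, and its log2FC was −0.24 (standard error 0.11). The ratio of SMAD7 to SMAD3 per kilobase went from 0.589 to 0.983, and the SD of its log2 value was 0.02 at 4 h and 0.05 at 8 h (n = 2 each).

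PMEPA1 encodes a membrane protein that keeps SMAD2 and SMAD3 from the receptor. It lies on chromosome 20 (56223448 to 56286592, minus strand) and had normalised counts of 594 and 685 at 4 h and 549 and 850 at 8 h. Its 8 h libraries lay on either side of the 4 h ones. NKILA, which is annotated on the opposite strand of PMEPA1 and shares exon sequence with it, is not among the genes counted. The log2FC of 0.12 had the largest standard error of the 9 genes, 0.14, and was −0.22 without replicate 2 at 8 h and 0.41 without replicate 1 at 8 h. The 3 feedback genes SMAD7, SKIL and PMEPA1 thus gave −0.24, −0.27 and 0.12, and none reached a log2FC of 1 in size.

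TGFB1 and TGFB2 encode the ligands TGF-β1 and TGF-β2, which use the same receptors, TGF-β2 with the help of the co-receptor betaglycan. TGFB1 (chromosome 19, 41807492 to 41859827, minus strand) had normalised counts of 1366 and 1444 at 4 h and 1684 and 2241 at 8 h. Both 8 h libraries were higher, but they were also far apart, and the log2FC of 0.48 (standard error 0.10) became 0.26 without replicate 2 at 8 h and 0.67 without replicate 1 at 8 h. TGFB1 shares exon sequence with HNRNPUL1 on the opposite strand, whose raw count was lower at 8 h (4181 and 4321 at 4 h, 3028 and 2789 at 8 h). The libraries were made with a stranded kit, and whether reads were counted by strand is not given in the sources used here. TGFB2 (chromosome 1, 218518678 to 218617961, plus strand) had 3195 and 3035 at 4 h and 2461 and 2409 at 8 h. It was at 78.2% of its 4 h level (log2FC −0.36, standard error 0.07), and its replicates were close. Its antisense neighbour TGFB2-AS1 had at most 35 counts. Per kilobase, TGFB2 and TGFB1 were nearly even at 4 h, with a ratio of 1.05, and TGFB1 was ahead at 8 h, with a ratio of 0.594. On the log2 scale, the 8 h libraries gave −0.53 and −0.97. The ratio is not corrected for the share of G and C in the transcripts, 42.2% for TGFB2 and 63.6% for TGFB1.

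THBS1 encodes thrombospondin-1, a matrix protein that frees TGF-β from its latent complex. It lies on chromosome 15 (39873280 to 39891667, plus strand) and had 20962 and 18266 normalised counts at 4 h against 11250 and 13281 at 8 h. It had the most reads of the 9 genes in every library, and both 8 h libraries were below both 4 h ones. The log2FC was −0.68 (standard error 0.08), or 62.5% of the 4 h level, and lay between −0.80 and −0.56 with 1 library left out. FSIP1, which overlaps THBS1 on the opposite strand, had at most 16 counts.

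Of the 9 genes, 2 had both 8 h libraries above both 4 h libraries (TGIF1 and TGFB1) and 5 had both below (SMAD3, SMAD7, SKIL, TGFB2 and THBS1), where 34.8% of all retained genes were above and 34.9% below. The contrast was used in the choice, so these counts only describe the list. The median log2FC was −0.26 over the 8 genes beside TGIF1 and 0.00 over all genes. Scaling by library size alone shifts the median of all genes by −0.11, and the 9 genes with it. Over all genes the split between higher and lower calls at an edgeR adjusted p below 0.05 is then 1698 to 3289, in place of 2500 to 2367.

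The 8 h replicates differed from each other more for SKI, TGFB1 and PMEPA1 than for the other 6 genes. Replicate 2 at 8 h was 1.42, 1.33 and 1.55 times replicate 1 for these 3 genes, against 0.889 (SMAD7) to 1.18 (THBS1) for the others. The canonical transcripts of SKI and TGFB1 are rich in G and C, at 61.4% and 63.6%, and that of PMEPA1 holds 54.2%. Among genes with a mean normalised count of at least 100, in the tenth with the highest GC content (61.5% to 74.3%), replicate 2 at 8 h was above replicate 1 by a median of 0.21 on the log2 scale, and in the tenth with the lowest by −0.04. At 4 h the same medians were 0.06 and −0.15. The median log2FC of 8 h over 4 h was 0.22 in the tenth with the highest GC content and −0.02 in the lowest. With each library corrected for its trend with GC content, the log2FC was 0.29 for TGFB1, −0.07 for SKI and 0.09 for PMEPA1. It was 1.48 for TGIF1, −0.99 for SMAD3 and −0.66 for THBS1, close to the uncorrected values. The part of GC content in the gap between the replicates was not tested beyond this correction.

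**Figure D2:**
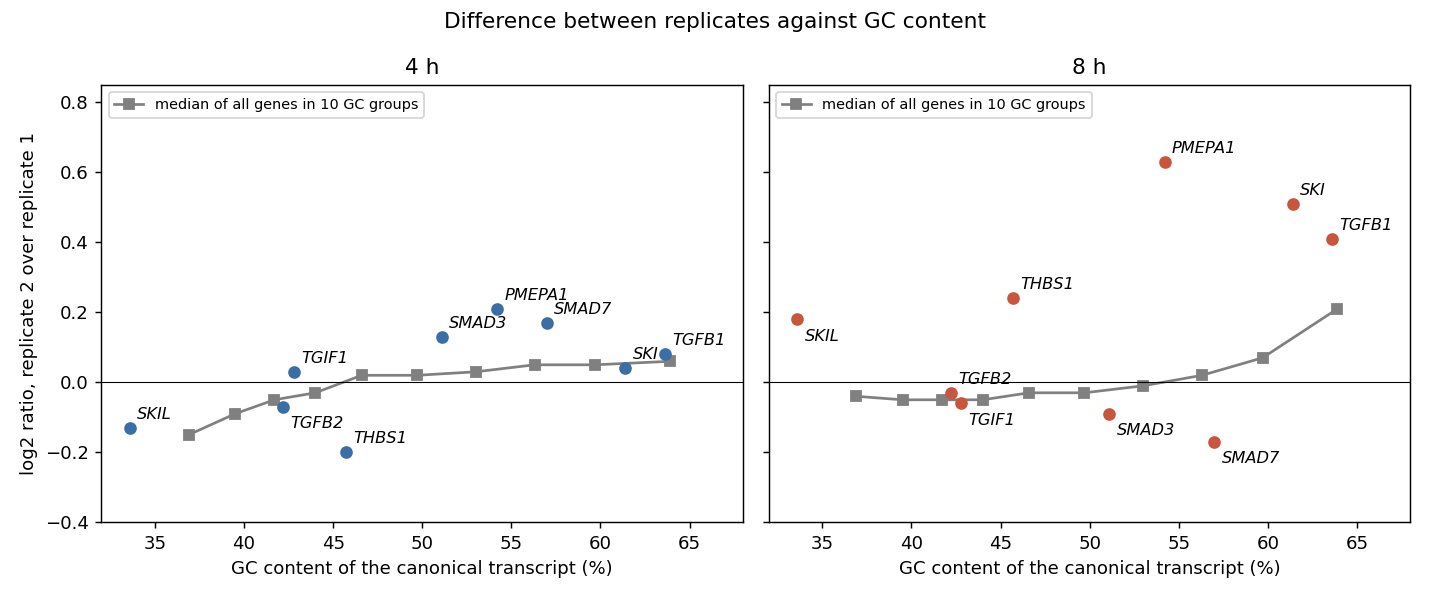
Log2 ratio of replicate 2 to replicate 1 (vertical axis) against the GC content of the canonical transcript in percent (horizontal axis), at 4 h on the left and 8 h on the right. Points are the 9 genes, and grey squares are medians of all genes with a mean normalised count of at least 100 in 10 groups of GC content. At 8 h the squares go from −0.04 to 0.21, and PMEPA1, SKI and TGFB1 lie at 0.63, 0.51 and 0.41.

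Levels of different genes were compared as normalised counts per kilobase of the canonical transcript. At 4 h the order was THBS1 (2518 ± 245), TGFB2 (531 ± 19.2), TGFB1 (505 ± 19.9), TGIF1 (401 ± 6.70), SKI (257 ± 5.41), SMAD3 (227 ± 14.7), SMAD7 (134 ± 10.9), PMEPA1 (129 ± 13.0) and SKIL (93.4 ± 6.10; SD, n = 2 for each). The ranges of TGFB2 and TGFB1 overlapped, as did those of SMAD7 and PMEPA1, and the other neighbours were apart. At 8 h TGIF1 came after THBS1 in this order, at 1100 ± 33.8 against 1575 ± 184, and before TGFB1 at 706 ± 142 and TGFB2 at 415 ± 6.20. SMAD3, at 115 ± 5.24, could then not be told from its neighbours PMEPA1 (141 ± 42.9) and SMAD7 (113 ± 9.42) by the ranges of the replicates. TGIF1 thus stood below THBS1 and both ligand genes at 4 h and above both ligand genes at 8 h, and above the other nuclear factors of the list at both times. SKIL had the lowest level per kilobase at both times.

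**Figure D3:**
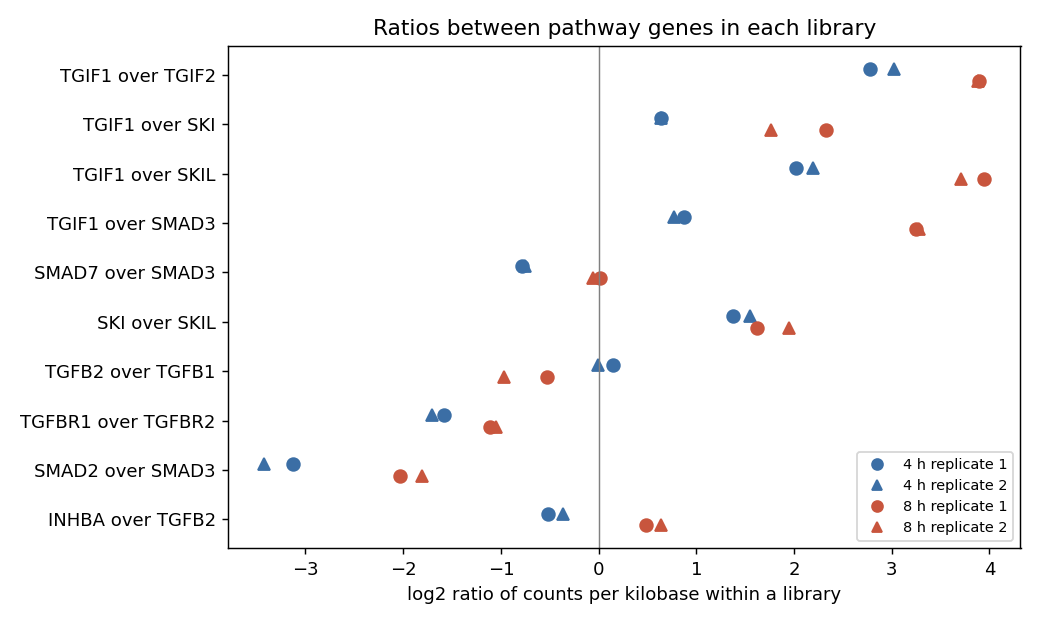
Log2 ratios between pairs of pathway genes (horizontal axis), in reads per kilobase within each library, at 4 h (blue) and 8 h (red), with circles for replicate 1 and triangles for replicate 2. The ratio of TGIF1 to SMAD3 shows the widest gap, from a mean of 0.82 at 4 h to 3.26 at 8 h.

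The pairs were picked after the values were known, so the ratios are described without a test. In all 10 pairs, the 2 libraries of 8 h lay on one side of the 2 libraries of 4 h. TGIF1 over SMAD3, a corepressor over a SMAD it binds, was 1.77 at 4 h and 9.58 at 8 h. SMAD2 over SMAD3 went from 0.103 to 0.264. The size of this ratio rests on a canonical SMAD2 transcript of 34.6 kb, against 6.46 kb for SMAD3, so no order of the pair is read from it. The mean normalised count of SMAD2 went from 813 at 4 h to 1051 at 8 h, and that of SMAD3 from 1470 to 742. These counts are not corrected for length and give no order of the pair either. The ratio of the type I receptor gene TGFBR1 to the type II gene TGFBR2 went from 0.321 to 0.473. INHBA, which encodes the subunit of activin A, a ligand of a sister branch that also signals through SMAD2 and SMAD3, was below TGFB2 at 4 h (0.738) and above it at 8 h (1.48).

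The genes whose profile over the 4 libraries was most like that of TGIF1 were sought among 9378 genes with a mean normalised count of at least 100. The measure was the root mean square difference of log2 counts centred on each gene's mean. The nearest were ENTPD7 (0.044), DNAJB9 (0.057), SPIRE1 (0.062), HSPA1B (0.063) and HMOX1 (0.075), with log2FC between 1.33 and 1.52. DNAJB9 encodes a chaperone of the endoplasmic reticulum, HSPA1B an inducible cytosolic heat shock protein and HMOX1 haem oxygenase 1. HSPA1B has a near-identical copy, HSPA1A, and its count is uncertain. Among the 8 other pathway genes, TGFB1 was nearest to TGIF1 at a distance of 0.521, and SMAD3 farthest at 1.219. Between the 9 genes themselves, SKI and PMEPA1 were the most alike (0.076), followed by SKIL and TGFB2 (0.087). The distances rest on 4 libraries at 2 times, so genes with a like log2FC and a like gap between replicates come out as alike. For SKI and PMEPA1 the log2FC was 0.07 and 0.12, and replicate 2 at 8 h was 1.42 and 1.55 times replicate 1. Their likeness thus includes a shared gap between the 8 h replicates.

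The rest of the pathway was read from a list of 92 other genes in 8 roles, of which 83 passed the filter. This list was drawn up with earlier results of these data known, so its shares only describe it. At an edgeR adjusted p below 0.05 over all genes, 33 of the 83 were higher at 8 h (39.8%, against 19.9% of all genes) and 14 lower (16.9%, against 18.8%). Without replicate 2 at 4 h, 21 were higher and 9 lower. The median log2FC was 0.12. With an absolute log2FC above 1 as well, 2 were called higher, TGFBR3 and ACVR2B, where 1.45% of all genes were, and 3 lower, SMAD6, ANGPTL4 and PDGFB, where 3.88% were. Without replicate 1 at 8 h, the log2FC of ANGPTL4 was −0.94 and no longer past that threshold.

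**Figure D4:**
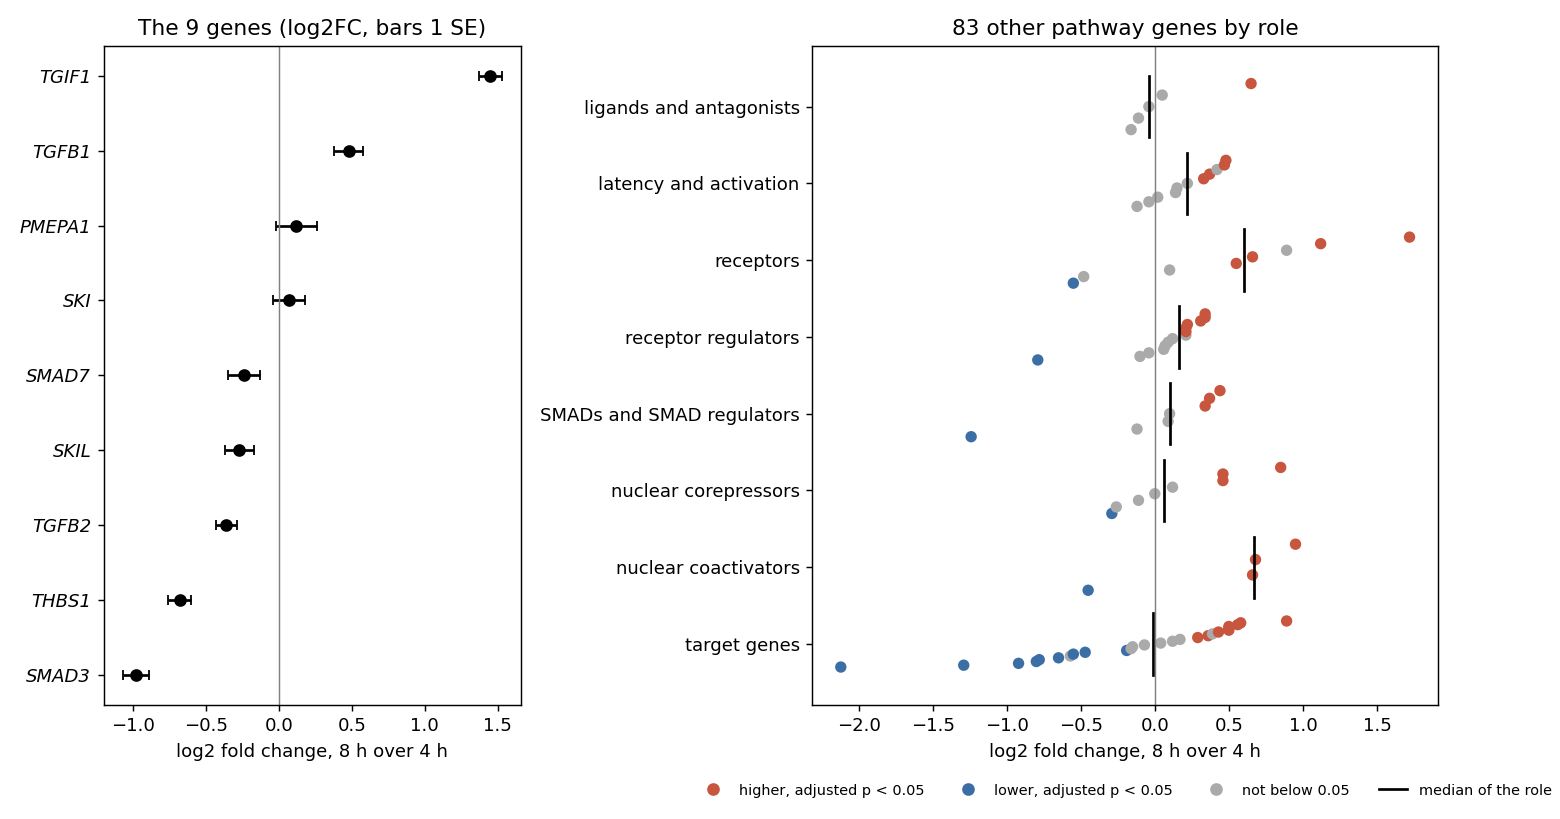
Log2 fold change of 8 h over 4 h (horizontal axes) for the 9 genes with bars of 1 standard error (left) and for the 83 other pathway genes by role (right), with red for higher and blue for lower at an adjusted p below 0.05, grey for the rest and black lines for the median of each role. TGIF1 lies at 1.45 and SMAD3 at −0.98, and target genes are spread from −2.12 to 0.89 around a median of −0.02.

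Among ligands, INHBA alone was called of the 5 retained (20.0% higher, against 19.9% of all genes). It rose from 2293 and 2443 normalised counts at 4 h to 3556 and 3870 at 8 h (log2FC 0.65, standard error 0.08, edgeR adjusted p = 2.4e-06). TGFB3, the remaining TGF-β ligand gene, was near the filter with 12 to 26 counts per library, and NODAL and LEFTY2 had none. Of 11 retained genes of latency and activation, 4 rose and none fell (36.4% and 0.0%, against 19.9% and 18.8% of all genes). These were LTBP2, LTBP3 and LTBP4, which encode proteins that bind latent TGF-β in the matrix, and ITGAV. ITGAV encodes 1 chain of the paired integrins that act on the latent complex. Of the partner chains on the list, ITGB6 did not pass the filter (1 to 10 counts). ITGB8 was not called (log2FC −0.12, edgeR adjusted p = 0.542). The log2FC of the 4 genes that rose ran from 0.33 to 0.48. LTBP3, with 67.7% GC in its transcript, had 3998 and 4111 normalised counts at 4 h and 4740 and 6562 at 8 h, so its 8 h replicates were far apart. LTBP4 had 1403 and 1416 at 4 h and 1689 and 2210 at 8 h (log2FC 0.47, edgeR adjusted p = 0.00104). Its transcript holds 67.2% GC, and its log2FC was 0.20 with the GC correction (adjusted p = 0.0215) and 0.26 without replicate 2 at 8 h.

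Of 8 retained receptor genes, 4 rose and 1 fell. TGFBR1, the type I receptor of TGF-β, rose from 972 and 929 to 1513 and 1485 (log2FC 0.66, standard error 0.08, edgeR adjusted p = 4.12e-06). TGFBR2, its type II partner, went from 2025 and 2112 by normalised count to 2280 and 2145 and was not called (log2FC 0.10, edgeR adjusted p = 0.337). TGFBR3, which encodes betaglycan, rose from 130 and 123 to 285 and 263 (log2FC 1.12, standard error 0.14, edgeR adjusted p = 6.95e-06). The activin receptor gene ACVR1B also rose (log2FC 0.55, edgeR adjusted p = 0.000589). ACVR2B rested on 9 and 18 reads at 4 h and 51 and 22 at 8 h (log2FC 1.72, edgeR adjusted p = 0.00216), and the call was lost without replicate 1 at 4 h (adjusted p = 0.0549) and without replicate 1 at 8 h (adjusted p = 0.0507). ACVR2A was called lower (log2FC −0.55, edgeR adjusted p = 0.0472), but not with DESeq2 (adjusted p = 0.172) nor without replicate 1 or 2 at 4 h or replicate 2 at 8 h, where its log2FC was −0.29 (adjusted p = 0.326).

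Of 14 retained receptor regulators, 6 rose (42.9%), with log2FC up to 0.34, and BAMBI fell (7.14%). The shares of all genes were 19.9% higher and 18.8% lower. Among the risers, NEDD4L, STRAP and CD109 were near the threshold (log2FC 0.21, 0.21 and 0.22, edgeR adjusted p = 0.0467, 0.0441 and 0.0416). BAMBI, which encodes a decoy receptor that blocks TGF-β and is itself a target, went from 1536 and 1577 to 919 and 881 (log2FC −0.79, standard error 0.08, edgeR adjusted p = 4.42e-07). DAB2, an adaptor that links the receptors to SMADs, rose by 0.31 (edgeR adjusted p = 0.00235, and 0.0725 without replicate 2 at 4 h). Of 7 SMAD and SMAD regulator genes, SMAD2, PPM1A and TRIM33 rose (42.9%) and SMAD6 fell (14.3%). SMAD2 went from 858 and 768 to 1004 and 1098 (log2FC 0.37, standard error 0.09, edgeR adjusted p = 0.00299, and 0.0806 without replicate 2 at 4 h), the opposite direction to SMAD3. SMAD4, the common partner, had a log2FC of −0.12 (edgeR adjusted p = 0.352). SMAD6, the inhibitory SMAD that acts mainly on the BMP branch, fell from 70.9 and 87.9 to 34.8 and 32.3 (log2FC −1.24, standard error 0.25, edgeR adjusted p = 0.000597).

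Of 8 retained corepressor genes, 3 rose (TGIF2, SIN3A and PHRF1) and 1 fell (HDAC1). These are 37.5% and 12.5%, against 19.9% and 18.8% of all genes. PHRF1, which encodes a ubiquitin ligase that marks TGIF1 protein for degradation, rose from 444 and 480 to 736 and 939 (log2FC 0.85, standard error 0.11, edgeR adjusted p = 7.07e-06), and its log2FC was 0.68 with the GC correction. SIN3A, a scaffold that joins TGIF1 to histone deacetylases, had a log2FC of 0.46 (edgeR adjusted p = 0.00076). HDAC1 had −0.29 (edgeR adjusted p = 0.0213), a call that was lost with DESeq2 (adjusted p = 0.0910) and without replicate 2 at 4 h (adjusted p = 0.222). Of the 4 retained coactivator genes, EP300, CREBBP and SP1 rose (75.0%) and KAT2B was lower (25.0%). EP300, a histone acetyltransferase that SMAD3 recruits, went from 443 and 476 to 839 and 939 (log2FC 0.95, standard error 0.10, edgeR adjusted p = 3.76e-07). KAT2B fell (log2FC −0.45, edgeR adjusted p = 0.0139), but not with DESeq2 (adjusted p = 0.0733) or without replicate 1 at 4 h (adjusted p = 0.153).

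Target genes of the pathway did not move together. Of 26 retained, 9 were higher, 9 lower and 8 not called, and the median log2FC was −0.02. Higher and lower calls were 34.6% each, against 19.9% and 18.8% of all genes. IL11, a cytokine gene, rose from 734 and 832 to 1463 and 1440 (log2FC 0.89, standard error 0.09, edgeR adjusted p = 2.1e-07). Others that rose were CCN2, LOX, IGFBP3, FN1, SPHK1, BHLHE40, ZEB1 and ZEB2, with log2FC from 0.29 to 0.58. GADD45B, a stress-inducible gene, fell from 4176 and 4735 to 2307 and 2413 (log2FC −0.92, standard error 0.08, edgeR adjusted p = 4.53e-08). PDGFB, a growth factor gene with 66 and 75 reads at 4 h and 17 and 9 at 8 h, had the lowest log2FC of the list, −2.12 (standard error 0.31, edgeR adjusted p = 3.08e-05). ANGPTL4 fell by 1.29 on the log2 scale (edgeR adjusted p = 0.000622). CDKN2B, a cell cycle inhibitor gene, fell by 0.78 (edgeR adjusted p = 6.87e-07), and COL1A1, KLF10, SNAI1, SNAI2 and TPM1 were also lower. The contractile genes TAGLN and ACTA2 gave 0.12 and 0.04 (edgeR adjusted p = 0.125 and 0.702). Many of these targets also respond to other pathways.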

How the data were processed

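Serum-starved RPE-1 cells were treated with merbarone for 4 or 8 h and polyadenylated RNA was sequenced. The authors aligned reads with Bowtie (1.2.0 in the submitters' processing notes, hg19), discarded those that mapped more than once and deposited raw counts per gene, without normalization. The counting tool, annotation and strand setting are not given in the sources used here. Bowtie makes ungapped alignments, so reads across splice junctions can be lost.

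The filter kept 12559 genes, each above a CPM of 1 in 2 or more of the 4 libraries. They were TMM-normalised and tested, 8 h against 4 h, with the quasi-likelihood test of edgeR 4.0.16 (R 4.3.3) and Benjamini-Hochberg adjustment. Normalised counts are scaled to 9586677 reads. The standard error is the log2FC divided by the square root of F. Limma-Voom (limma 3.58.1), DESeq2 1.42.0, other scalings and filters, a replicate block and leaving out each library were alternatives. The GC correction, a lowess fit per library, was added after seeing the data (97.9% of genes had a GC value). The biological coefficient of variation was 6.52%, and p-values cover the spread between 2 libraries per time only.

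Symbols came from RefSeq, positions and canonical transcripts from GENCODE on GRCh37. The members and lists were chosen with earlier results of these data known. Named genes were the 9 members, TGIF2, in each role the lowest adjusted p in each direction, and every gene past both thresholds. The 5 genes most like TGIF1 were also named. Other genes in the text were added after their values were seen. The calls of these other pathway genes were not checked one by one under the alternatives.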

Additional observations from a re-analysis of the deposited data

How the results depend on the processing

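The log2FC of TGIF1 was 1.35 with library size alone, which shifts the median of all genes by −0.11, and 1.42 to 1.49 with 1 library left out. The median of the other 8 members ran from −0.28 to −0.25 with 1 library left out. The number of other pathway genes higher at 8 h was 2 with the added log2FC threshold and 21 to 34 with 1 library left out. The number lower was 3 with that threshold, 8 with DESeq2 and 9 to 13 with 1 library left out, the lowest of both without replicate 2 at 4 h. Over all genes, 182 were higher and 487 lower with the threshold, 1503 lower with DESeq2, and 1605 to 2534 higher and 1509 to 2294 lower with 1 library left out (1605 and 1509 without replicate 1 at 4 h, 1619 and 1522 without replicate 2 at 4 h). A time left with 1 library is assumed to vary like the other. Of the 19 named pathway genes, 7 lost their call under at least 1 of the 12 alternatives and none changed sign.

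With the replicate number as a block, the log2FC of TGIF1 was 1.45 and 37 pathway genes were higher and 15 lower. Deviations of same-numbered libraries had a correlation of 0.048, so the numbers were not taken as pairs. All 4867 genes called without the block were among the 5493 called with it.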
